A study of Mus musculus with 24 samples.

Results

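DNA replication and nucleotide synthesis genes were followed through p53 restoration in cell lines from mouse small cell lung cancer (SCLC). They comprise 48 symbols chosen from a list of origin licensing, replication fork and deoxynucleotide (dNTP) supply genes, out of 25239 genes in the expression table. All 48 were present in the table and all 48 passed the filter on low values (at least 1 TPM, a share of all transcripts corrected for transcript length, in at least 3 libraries), as did 14104 genes in all. They were grouped by role into origin licensing (12 genes), helicase activation (6), polymerases and primase (8), the sliding clamp with its loader, strand processing enzymes and the single-strand binding protein RPA (9), dNTP supply (5), chromatin assembly and maintenance methylation (4), and fork protection (4).

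As background, a replication origin is licensed in G1 when ORC, CDC6 and CDT1 load the MCM2 to MCM7 ring onto DNA, and geminin (Gmnn) later blocks CDT1 so that each origin fires only once. In S phase CDC45 and GINS join the ring to form the active helicase, MCM10 helps to start it, and the polymerases copy both strands behind it with PCNA as their clamp. Ribonucleotide reductase, thymidylate synthase and thymidine kinase supply the building blocks. Most of these genes are transcribed under E2F control towards the G1/S border, whereas genes of mitosis are typically controlled through CHR elements by DREAM and MuvB complexes. p53 is known to repress both kinds of genes through p21 and the pocket proteins RB1, RBL1 and RBL2.

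The study restored p53 in lines derived from individual lung tumours of mice with Rosa26 FlpO-ER, Rb1 flox/flox and Rbl2 flox/flox, and with Trp53 XTR/XTR, in which an adenovirus with Cre under the CMV promoter had started the tumours. All libraries therefore share the Cre-deleted Rb1 and Rbl2 alleles, and Control cells keep Trp53 trapped by the inserted cassette. Restored cells received 4-hydroxytamoxifen (4-OHT), which activates FlpO and excises the trap, and Control cells received the vehicle, so restoration and 4-OHT itself cannot be told apart. Lines 4711-1, 4711-18 and 4716-11 are Type D, which lose viability after restoration, and lines 4711-11, 4716-10 and 4716-14 are Type V, which stay viable. Each line was sampled at 72 h under 4 conditions, Control, Control + CsA, Restored and Restored + CsA, where CsA is cyclosporin A, an inhibitor of cyclophilins. This gave 24 libraries in 8 groups of 3. Where 3 values are given for a type, they follow the order of these lines.

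Trp53 lay between 10.7 and 14.8 TPM in the 6 Control libraries and between 181 and 253 TPM in the 6 Restored ones, and Cdkn1a (p21) between 37.5 and 129 TPM and between 1068 and 2540 TPM, as the labels state. The neuroendocrine and SCLC markers were mixed. Chga was listed at 0 in all 24 libraries and Syp reached at most 1.41 TPM, Ncam1 was at 4.46 to 27.3 TPM in every library, Insm1 reached 49.6 TPM and Uchl1 40.9 TPM in Type V, Ddc reached 79.4 TPM in Type D, and Yap1 was at 93.5 to 571 TPM. Markers of other cells moved in part with the groups. The summed TPM of 7 fibroblast markers was 0.634 to 1.34 in Type D Control, 227 to 500 in Type V Control and 89.1 to 194 in Type V Restored. That of 7 immune markers was 9.24 to 11.2 in Type D Control and 31.9 to 56.3 after restoration, almost all of it Cd68, with Ptprc and Cd3e near 0. In Type V the immune sum was 8.01 to 11.0 in Control and 16.9 to 32.2 in Restored. The part of these markers in the results was not tested. The depth behind each TPM value is unknown, 11853 to 12651 genes reached 1 TPM in a library, and in bulk RNA fewer cells in S phase and less transcript per cell cannot be told apart.

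The promoters of replication and mitosis genes differed in the letters they held. RefSeq promoter windows (GRCm38.p6; 250 bases before to 50 bases after a transcript's start) were at hand for 39 of the 48 genes, with 48 windows. Windows for Gmnn, Gins1, Gins2, Gins4, Mcm4, Prim2, Pole, Rfc2 and Tipin were not used here. Both strands were searched for E2F letters (TTTGGCGC, TTTCGCGC, TTTCCCGC, TTTGCCGC or GGCGGGAA), for CHR letters (TTTGAA or TTCGAA) and for CCAAT. GGCGGGAA read on the other strand overlaps TTTCCCGC, so 1 stretch can match both, and a window was counted once. E2F letters stood in 21 of 48 windows (43.8%), against 1 of 24 windows of mitosis genes (4.17%) and 6.64% of 13749 windows of all tested genes. CHR letters stood in 8 windows of the replication genes (16.7%), 17 windows of the mitosis genes (70.8%) and 13.9% of all tested. CCAAT was in 28 (58.3%), 18 (75%) and 37.6%. The stretches of 60 bases printed here, read 5′ to 3′ on the gene's strand with matched letters of either strand in capitals, show E2F letters in genes with and without a lower level after restoration, CHR letters in a pair of replication genes, and CHR letters in Cdc20, a mitosis gene, for comparison.
Mcm5, chr8:75109334-75109393, plus strand: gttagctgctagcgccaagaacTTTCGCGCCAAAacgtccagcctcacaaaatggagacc
Rrm1, chr7:102441602-102441661, plus strand: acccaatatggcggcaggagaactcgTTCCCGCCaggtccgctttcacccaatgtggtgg
Prim1, chr10:128015155-128015214, plus strand: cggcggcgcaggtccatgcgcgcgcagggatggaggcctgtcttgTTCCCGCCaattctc
Uhrf1, chr17:56303263-56303322, plus strand: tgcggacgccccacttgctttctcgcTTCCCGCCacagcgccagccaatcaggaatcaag
Pold2, chr11:5877801-5877860, minus strand: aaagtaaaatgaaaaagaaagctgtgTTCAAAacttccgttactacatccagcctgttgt
Mcm2, chr6:88898817-88898876, minus strand: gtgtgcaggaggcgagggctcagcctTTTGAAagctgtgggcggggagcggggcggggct
Cdc20, chr4:118437344-118437403, minus strand: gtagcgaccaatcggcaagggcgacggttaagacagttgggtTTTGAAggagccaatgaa
In Mcm5 the capitals hold a pair of overlapping matches, 1 on each strand. The nearest match lay 149 bases before the start in Mcm5, 67 in Rrm1, 15 in Prim1, 48 in Uhrf1, 171 in Pold2, 70 in Mcm2 and 18 in Cdc20. A match is only a run of letters, not a shown binding site.

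**Figure D1:**
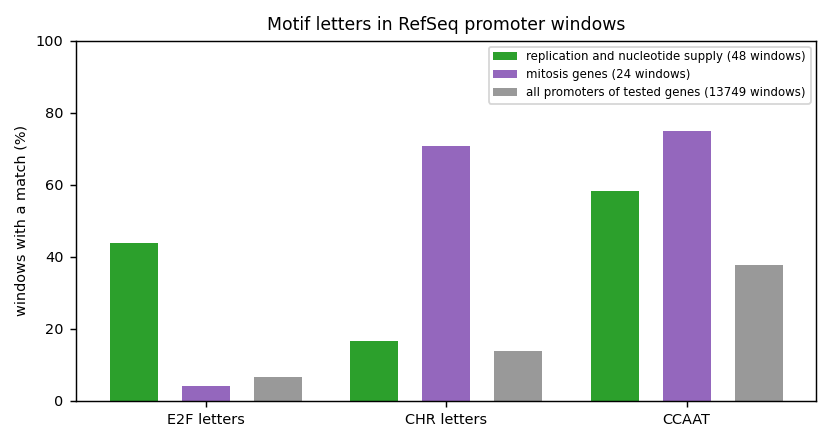
Share of promoter windows (y axis, %) that hold E2F letters, CHR letters or CCAAT, as bars for the replication and nucleotide supply genes (48 windows), the mitosis genes (24 windows) and all tested genes (13749 windows). E2F letters are at 43.8% in the replication genes and 4.17% in the mitosis genes, and CHR letters at 16.7% and 70.8%.

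After restoration, the expression of replication genes lay lower by small amounts in most genes, and past the test in few of them. The median log2 change over the 48 genes was -0.43 in Type D and -0.39 in Type V, against 0.07 and 0.05 over all tested genes, and 39 and 41 of 48 had a negative change. In Type D 4 genes fell (limma on log2(TPM + 1), adjusted p under 0.05 and at least 1 log2 unit), namely the helicase starter Mcm10, the checkpoint adaptor Clspn, thymidine kinase Tk1 and the polymerase delta subunit Pold2, where 2.44% of all tested genes were called lower. In Type V 2 fell, Mcm10 and Clspn, against 1.9% of all tested genes. None of the 48 was called higher in either type. By adjusted p alone 11 genes were lower in Type D (background 5.05%) and 9 in Type V (4.57%). In a fit with the cell line as a block, which pairs each Restored library with the Control of its own line, those numbers were 21 (background 17.6%) and 20 (17.8%), and Cdt1 and Tipin were higher in Type D and none of the 48 in Type V (27.6% and 22.8% of all tested genes were). The genes that fell by at least 1 log2 unit with the block again numbered 4 and 2. In Type V the number was 4 under quantile normalization, 1 when only the compared groups were fitted and 1 to 6 with 1 line left out, and in Type D it was 1 to 4 with 1 line left out.

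All 3 lines had a lower Restored than Control value in 29 of the 48 genes in Type D, where 26.1% of all tested genes did, and in 20 in Type V (25.3%). A higher value in all 3 lines was seen in 4 (39.2%) and 0 genes (32.4%). The Restored group lay wholly below the Control group in 20 genes of Type D (background 13.1%) and 16 of Type V (10.3%). It lay wholly above in Cdt1, Chaf1b, Rpa1 and Tipin in Type D (20% of all tested genes) and in none of the 48 in Type V (12%). The p-values rest on 3 lines a group. Without the block the error is the spread between lines, pooled over the 8 groups, with the 4 libraries of a line taken as independent. With the block it is the spread that remains after the level of each line is taken out. The 2 types do not share Control libraries with each other.

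**Figure D2:**
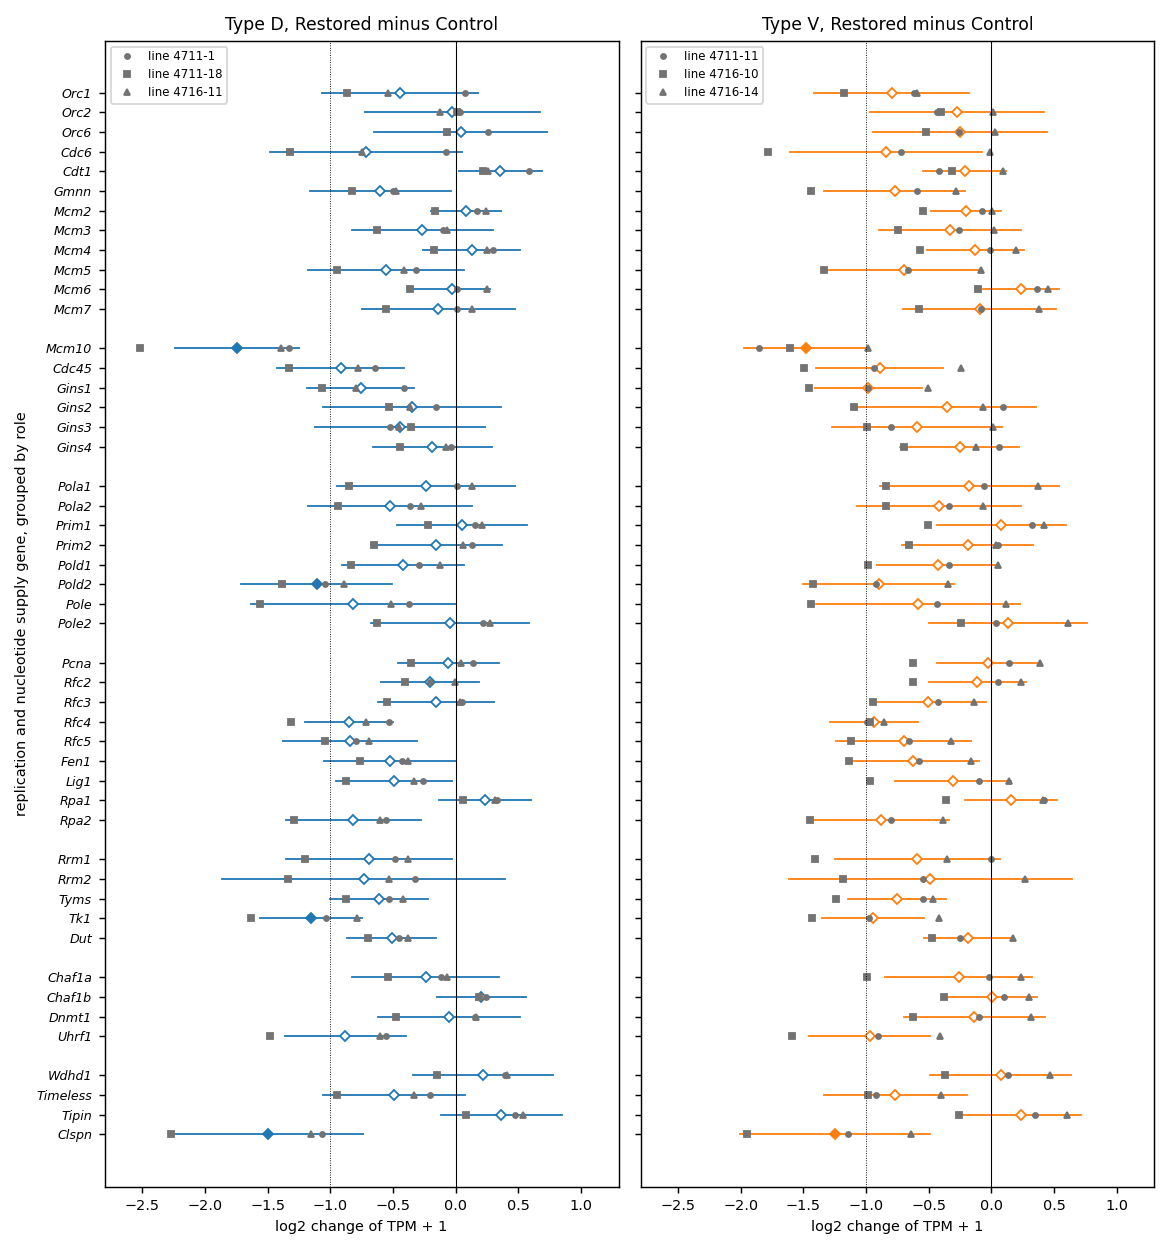
Fitted log2 change of TPM + 1 on restoration (x axis; diamonds with 95% intervals, filled where called lower) for each of the 48 genes (y axis, grouped by role), with the difference in each line as small grey symbols, for Type D (left) and Type V (right). Mcm10 at -1.75 and -1.48 and Clspn at -1.50 and -1.25 lie farthest to the left, and the origin licensing genes have medians of -0.09 and -0.26.

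Origin licensing genes had the group median closest to 0 in Type D. The median log2 change of the 12 genes was -0.09 in Type D and -0.26 in Type V. limma called 0 of the 12 in each, with 2 and 4 at an unadjusted p under 0.05. Of the 14104 tested genes 3563 and 3117 had such a p. Mcm2, a subunit of the licensed ring, was at 253, 258 and 249 TPM in Type D Control and 284, 230.1 and 294 TPM in Type D Restored. In Type V Mcm2 was at 262, 324 and 294 TPM before and 249, 222 and 295 TPM after restoration. The groups overlapped in both types, and the log2 changes were 0.08 (SE 0.13) and -0.21 (SE 0.13). The other ring genes had changes of -0.26 (Mcm3), 0.13 (Mcm4), -0.56 (Mcm5), -0.03 (Mcm6) and -0.14 (Mcm7) in Type D and -0.33, -0.13, -0.69, 0.24 and -0.09 in Type V. Mcm5, whose promoter stretch with E2F letters is shown above, had the most negative values of the 6, at 233, 179.9 and 174 TPM against 187, 92.8 and 131 TPM in Type D and 355, 300.0 and 236 TPM against 224, 118 and 222 TPM in Type V. The Type V groups of Mcm5 did not overlap, the Type D groups did, and neither change passed (adjusted p = 0.26 and 0.167).

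The genes of ring loading varied by line. Cdc6, the loading ATPase, was at 22.7, 22.3 and 26.2 TPM in Type D Control and 21.5, 8.36 and 15.1 TPM in Type D Restored, and at 29.7, 24.3 and 20.2 TPM before and 17.6, 6.38 and 20.1 TPM after restoration in Type V. In both types the middle line (4711-18 and 4716-10) had the lowest Restored value. The groups were apart by a narrow margin, and the changes of -0.72 (SE 0.37) and -0.84 (SE 0.37) did not pass. Orc1, the ORC subunit most tied to the cell cycle, had changes of -0.44 (SE 0.30) and -0.80 (SE 0.30), and Orc2, the least moved of the group in Type D, had -0.03 and -0.27. The largest ring gene level was not tied to 1 subunit, and the ratio of the highest to the lowest of Mcm2 to Mcm7 within a library was 1.56 to 3.02 in the 6 Control and 1.44 to 3.34 in the 6 Restored libraries.

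Cdt1 and its inhibitor Gmnn had opposite signs in Type D. Cdt1, the licensing factor, was at 173, 164 and 179 TPM in Type D Control and 261, 191 and 215 TPM in Type D Restored, with every Restored library above every Control one. In Type V it was at 259, 211 and 215 TPM before and 194, 169 and 229 TPM after restoration, and the groups overlapped. The log2 changes were 0.35 (SE 0.16, adjusted p = 0.165) and -0.21 (SE 0.16, adjusted p = 0.497). Blocked by cell line, Cdt1 in Type D reached an adjusted p of 0.0165. Gmnn was at 128, 135 and 157 TPM in Type D Control and 90.2, 75.5 and 113 TPM in Type D Restored, and at 152, 132 and 129 TPM before and 100.2, 48.1 and 105 TPM after restoration in Type V. Its Restored values lay below all Control values in both types, with changes of -0.60 (SE 0.27, adjusted p = 0.166) and -0.77 (SE 0.27, adjusted p = 0.0773) that did not pass. The ratio of Cdt1 to Gmnn TPM within a library was 1.14 to 1.35 in Type D Control, 1.91 to 2.89 in Type D Restored, 1.60 to 1.71 in Type V Control and 1.94 to 3.52 in Type V Restored, and did not overlap between Control and Restored in either type.

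Genes that turn the licensed ring into a working helicase had negative changes throughout. The median log2 change of the 6 genes was -0.60 in Type D and -0.74 in Type V, all 6 changes were negative in both types, and 1 passed in each. Mcm10 was at 34.1, 47.8 and 32.0 TPM in Type D Control and 13.0, 7.51 and 11.5 TPM in Type D Restored. In Type V it was at 44.0, 46.5 and 32.0 TPM before and 11.4, 14.6 and 15.7 TPM after restoration. No Restored library reached the lowest Control library of its type. The log2 change was -1.75 in Type D (SE 0.24, adjusted p = 4.10e-05) and -1.48 in Type V (SE 0.24, adjusted p = 0.000351), and Mcm10 was the only one of the 48 genes called on restoration in both types with and without CsA. Its only promoter window holds neither E2F nor CHR letters.

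Cdc45, which joins the ring to form the active helicase, was at 45.9, 44.1 and 50.4 TPM in Type D Control and 29.0, 16.9 and 29.0 TPM in Type D Restored, and at 57.5, 52.2 and 41.7 TPM before and 29.5, 17.9 and 35.0 TPM after restoration in Type V. The groups did not overlap in either type, and the changes of -0.92 (adjusted p = 0.0158) and -0.89 (adjusted p = 0.022) passed the adjusted p but not the fold. The GINS subunits ranged from Gins1 at -0.76 and -0.98 (adjusted p = 0.0184 and 0.00366) to Gins4 at -0.18 and -0.25. Gins2 was at -0.35 (SE 0.34) and -0.36 (SE 0.34).

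**Figure D3:**
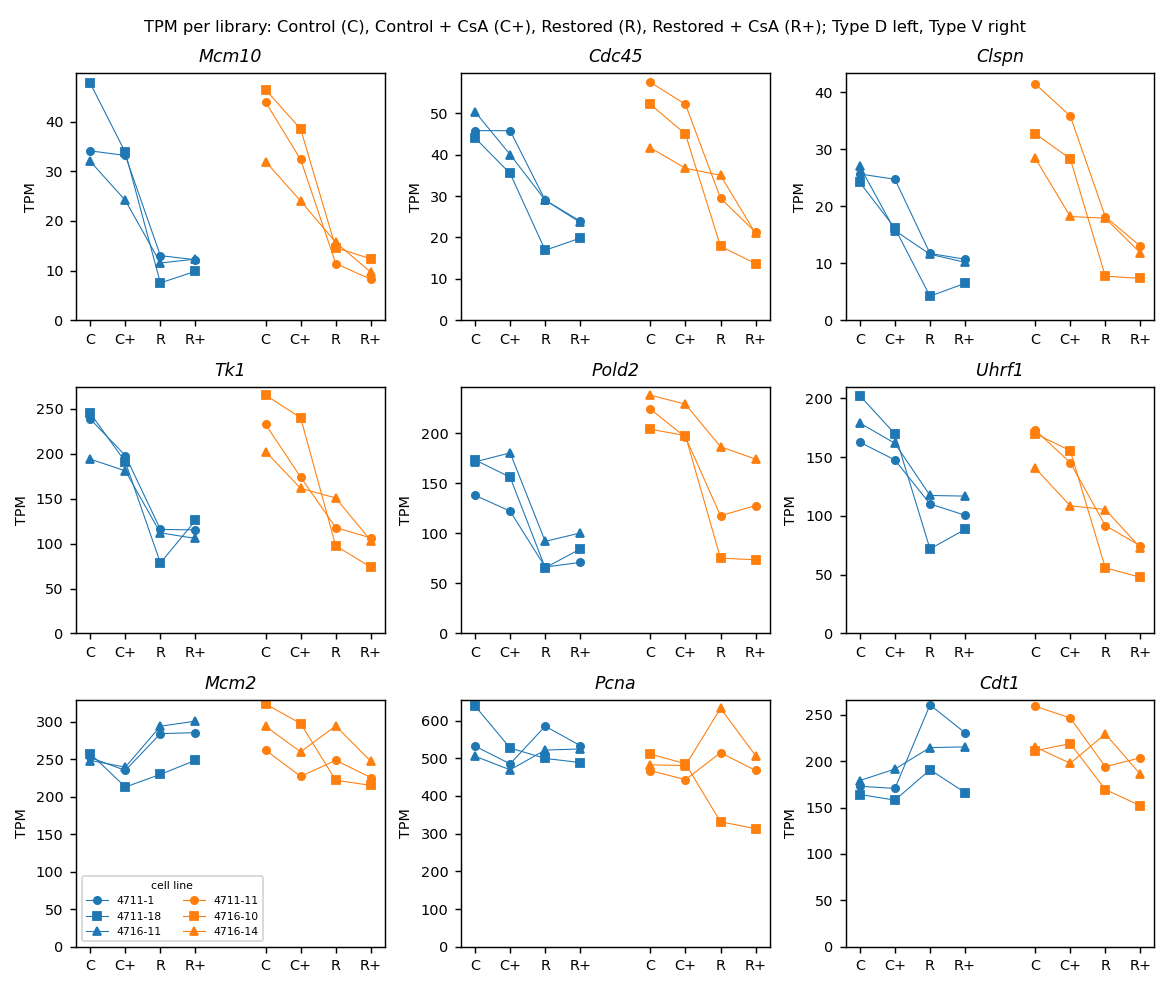
TPM in each library (y axis, from 0) of 9 genes under Control (C), Control + CsA (C+), Restored (R) and Restored + CsA (R+), with Type D on the left and Type V on the right of each panel and 1 line of symbols per cell line. Mcm10, Cdc45, Clspn and Tk1 lie lower in every Restored library than in the Control libraries of the same type, whereas Mcm2 and Pcna overlap.

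Of the polymerase and primase genes 1 fell. The median log2 change of the 8 was -0.33 in Type D and -0.30 in Type V. Pold2, an accessory subunit of polymerase delta, was at 138, 173 and 172 TPM in Type D Control and 66.4, 65.6 and 92.1 TPM in Type D Restored, and at 224, 204 and 238 TPM before and 118, 75.2 and 187 TPM after restoration in Type V. The groups did not overlap, and line 4716-14 had the smallest difference of the 6. The change was -1.11 in Type D (SE 0.29, adjusted p = 0.0141) and -0.90 in Type V (SE 0.29, adjusted p = 0.0535). The Type D call was lost when any 1 of the 3 lines was left out, with adjusted p = 0.0907, 0.199 and 0.0662. The catalytic partner Pold1 was at -0.42 in both types, the primase subunit Prim1 at 0.05 (SE 0.25) and 0.08 (SE 0.25), Pola1 at -0.24 and -0.18, and Pole2 at -0.04 and 0.13. The signs of Prim1 and Pole2 turned under some alternatives. Prim1 carries E2F letters near its start and was higher in 4 of the 6 lines. Of the Pold2 windows, the one printed above carries CHR letters and the other does not. Whether these letters bear on the change of either gene was not tested.

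The clamp gene Pcna had the highest level of the 48, with a median of 508 TPM over the 6 Control libraries, and moved little. It was at 532, 639 and 505 TPM in Type D Control and 585, 499.7 and 522 TPM in Type D Restored, and at 467, 511 and 483 TPM before and 515, 332 and 633 TPM after restoration in Type V, with overlap in both types and changes of -0.06 (SE 0.19) and -0.03 (SE 0.19). The ratio of Pcna to Mcm10 TPM within a library was 13.4 to 15.8 in Type D Control and 45.0 to 66.5 in Type D Restored, and 10.6 to 15.1 and 22.7 to 45.1 in Type V. Pcna is itself known as a direct p53 target in addition to its place in S phase. The other clamp group genes had a wider range, and the median of all 9 was -0.49 and -0.51. The loader subunit Rfc4 was at 65.7, 98.5 and 70.3 TPM in Type D Control and 45.1, 39.1 and 42.5 TPM in Type D Restored, and at 75.7, 65.4 and 63.3 TPM before and 37.6, 33.0 and 34.6 TPM after restoration in Type V. These groups did not overlap, and its changes of -0.85 (adjusted p = 0.00171) and -0.94 (adjusted p = 0.000944) stayed under the fold. Other loader subunits ranged from -0.84 (Rfc5) to -0.15 (Rfc3) in Type D, and from -0.70 (Rfc5) to -0.11 (Rfc2) in Type V. The flap nuclease Fen1 and the ligase Lig1 were at -0.52 and -0.49 in Type D and -0.62 and -0.31 in Type V, none of them past the test. Of the RPA genes, Rpa1 was at 0.23 and 0.16 and Rpa2 at -0.82 and -0.88 (adjusted p = 0.0413 and 0.0333), so subunits of 1 complex had different signs.

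The dNTP supply genes had the most negative group median in Type D, -0.69, with -0.59 in Type V, and all 5 changes were negative in both types. Tk1, which salvages thymidine, was at 239, 245 and 194 TPM in Type D Control and 116, 78.5 and 112 TPM in Type D Restored. In Type V it was at 233, 265 and 202 TPM before and 118, 97.6 and 151 TPM after restoration. The groups did not overlap in either type. Tk1 fell by 1.15 on the log2 scale in Type D (SE 0.19, adjusted p = 0.000432), and its change of -0.94 in Type V (SE 0.19, adjusted p = 0.00331) missed the fold. Without 4711-18 its Type D change was -0.91 (adjusted p = 0.0323), under the fold. Tyms, thymidylate synthase, was at 60.3, 69.9 and 55.7 TPM in Type D Control and 41.4, 37.7 and 41.3 TPM in Type D Restored, and at 69.8, 74.0 and 75.8 TPM before and 47.4, 30.7 and 54.5 TPM after restoration in Type V, again without overlap. Its changes were -0.61 (adjusted p = 0.0366) and -0.75 (adjusted p = 0.0125), and its pseudogene Tyms-ps, which could share reads with it, was at 0 to 0.258 TPM. Dut, which removes dUTP, was at -0.51 (adjusted p = 0.0519) and -0.18 (adjusted p = 0.607).

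The small subunit of ribonucleotide reductase varied widely between lines. Rrm2, the small subunit made in S phase, was at 746, 283 and 359 TPM in Type D Control and 596, 111 and 248 TPM in Type D Restored, and at 175, 320.1 and 118 TPM before and 120.0, 140.3 and 142 TPM after restoration in Type V. Line 4716-14 was the only one with a higher Restored value, the groups overlapped, and the changes were -0.73 and -0.49 (SE 0.54 in both). The large subunit Rrm1 was at 215, 233 and 223 TPM in Type D Control and 154, 101 and 171 TPM in Type D Restored, and at 327, 281 and 266 TPM before and 326, 105 and 207 TPM after restoration in Type V. Rrm1 did not overlap in Type D and did in Type V, where 4711-11 kept its level, and its changes of -0.69 and -0.59 did not pass. Rrm2b, the small subunit induced by p53 and no member of the 48, was higher by adjusted p alone in both types, at 0.65 (adjusted p = 0.0387) and 0.71 (adjusted p = 0.0272). The ratio of Rrm2 to Rrm2b TPM was 27.9 to 80.9 in Type D Control and 4.75 to 50.1 in Type D Restored, and 13.3 to 34.9 and 6.56 to 9.58 in Type V.

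Chromatin and fork protection genes each held 1 gene that stood apart from the rest. Uhrf1, which brings the methyltransferase Dnmt1 to newly copied DNA, was at 163, 202 and 179 TPM in Type D Control and 110.1, 71.9 and 117 TPM in Type D Restored, and at 173, 169.9 and 141 TPM before and 91.7, 55.8 and 105 TPM after restoration in Type V. There was no overlap, and its changes were -0.88 (adjusted p = 0.0149) and -0.97 (adjusted p = 0.00949), under the fold. Dnmt1 was at -0.05 (SE 0.27) and -0.14 (SE 0.27), and the histone chaperone gene Chaf1b at 0.21 (SE 0.17) and 0.01 (SE 0.17). Clspn, the adaptor through which stalled forks activate CHK1, was at 25.6, 24.1 and 27.0 TPM in Type D Control and 11.7, 4.21 and 11.6 TPM in Type D Restored. In Type V Clspn was at 41.4, 32.7 and 28.4 TPM before and 18.2, 7.73 and 17.9 TPM after restoration. The groups did not overlap, and 4711-18 and 4716-10 had the lowest Restored value of their type. Clspn fell by 1.50 on the log2 scale in Type D (SE 0.36, adjusted p = 0.00894) and by 1.25 in Type V (SE 0.36, adjusted p = 0.0325). The Type D call was lost without 4711-18 (log2 change -1.11, adjusted p = 0.126) and without 4716-11 (adjusted p = 0.0508), and the Type V call was lost when any line but 4711-18 was left out. The fork protection genes Timeless, Tipin and Wdhd1 were at -0.49, 0.36 and 0.22 in Type D and -0.77, 0.23 and 0.07 in Type V, so Timeless and its partner Tipin had opposite signs.

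The medians of genes with and without promoter letters were compared as a description only. In Type D the median log2 change was -0.34 over the 20 genes with E2F letters (range -1.50 to 0.35) and -0.52 over the 19 without, and it was -0.30 over the 8 with CHR letters and -0.49 over the 31 without. In Type V the medians were -0.38 with and -0.49 without E2F letters, and -0.55 with and -0.42 without CHR letters. Mcm10 and Tk1 held neither, Clspn held E2F letters and Pold2 CHR letters.

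Read side by side, the replication genes and the mitosis genes of the same libraries differed in size of change. Of a list of 28 mitosis genes, 27 fell in each of the 4 restoration comparisons, with medians of -3.02 in Type D and -2.09 in Type V, and the exception was Pttg1, securin, at 0.43 and -0.20. The mitotic kinase Plk1 fell by 3.79 and the spindle motor Kif11 by 3.60 on the log2 scale in Type D. The summed TPM of the 48 replication genes was 1.72 to 1.78 times that of the mitosis genes in Type D Control and 7.53 to 14.3 times in Type D Restored, and 1.98 to 2.11 times and 4.54 to 7.72 times in Type V.

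**Figure D4:**
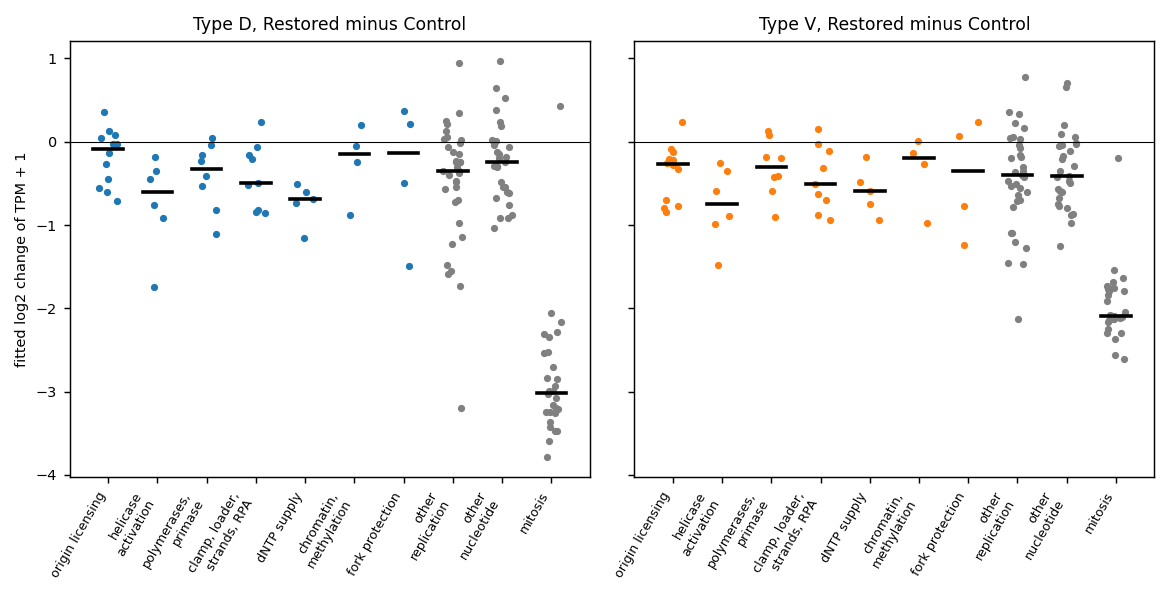
Fitted log2 change of TPM + 1 on restoration (y axis) of each gene (points) with the median (bar), for the 7 roles of the replication and nucleotide supply genes (coloured) and for other replication, other nucleotide synthesis and mitosis genes (grey), in Type D (left) and Type V (right). Medians run from -0.09 (origin licensing) to -0.69 (dNTP supply) in Type D, and the mitosis genes lie at -3.02.

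Other replication genes, a list of 35 outside the 48, had medians of -0.35 in Type D and -0.40 in Type V, with 6 called lower and none higher in each. In Type D these were Top2a (-3.19), the topoisomerase of mitosis and S phase, the origin firing genes Ticrr (-1.74) and Dbf4 (-1.48), the histone chaperone Asf1b (-1.59), the clamp loader subunit Chtf18 (-1.56) and Rnaseh2c (-1.15). In Type V the chaperone Nasp (-1.10) was called in place of Rnaseh2c (-0.78). Of 29 other nucleotide synthesis genes 1 fell in Type D, Dctpp1 (-1.03), which hydrolyses dCTP. In Type V limma called 0 of the 29, and 15 had an unadjusted p under 0.05, where 3117 of the 14104 tested genes did. The medians of the 29 were -0.24 and -0.41. By adjusted p alone 9 were lower and 2 higher in Type D and 6 lower and 2 higher in Type V. The higher ones were Rrm2b and the mitochondrial thymidine kinase Tk2 (0.97 and 0.66).

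Among 20 E2F and pocket protein genes, Foxm1 (-2.66 and -1.94) and Mybl2 (-2.46 and -1.77), activators of the mitosis genes, fell in both types, and E2f8 (-1.50) and Lin9 (-1.16) fell in Type V. Rb1 rose in both, at 1.60 and 1.97, although its floxed exon was deleted to start the tumours, and TPM over the whole gene does not show whether that exon is read. E2f1 (0.44 and 0.36), Rbl1 (-0.11 and -0.00) and Rbl2 (0.30 and 0.50) were not called.

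Individual lines varied within each type. The mean log2 difference over the 48 genes on restoration was -0.21 in 4711-1, -0.77 in 4711-18 and -0.25 in 4716-11 among Type D, and -0.37 in 4711-11, -0.94 in 4716-10 and -0.03 in 4716-14 among Type V. The number of genes with a lower Restored value was 29, 43 and 32 in Type D and 36, 48 and 22 in Type V, where between 39.2% and 47.2% of all tested genes were lower in a line. In 4711-18, 46 of the 48 genes had their most negative difference within Type D, and in 4716-10, 44 had it within Type V. Differences under -1 numbered 4, 14 and 2 in Type D and 2, 19 and 0 in Type V. The share of all tested genes with their most negative difference in a line, or with one under -1, was not counted. The median difference over all tested genes was 0.04, 0.06 and 0.10 in Type D and 0.04, 0.01 and 0.06 in Type V. Without 4711-18 the median fitted change in Type D was -0.25 with 31 of 48 negative and 1 gene called, Mcm10, and without 4716-10 the median in Type V was -0.15 with 31 negative and 1 called, Mcm10. Without 4716-14 it was -0.56, with 6 called. The mean differences of the mitosis genes were -2.52, -3.79 and -2.23 in Type D, most negative in 4711-18 as well, and -2.05, -2.00 and -1.82 in Type V, most negative in 4711-11. Cdkn1a in the Restored libraries was at 1871, 2539.9 and 1563 TPM in Type D and 1734, 1068 and 1605 TPM in Type V, highest in 4711-18 and lowest in 4716-10.

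**Figure D5:**
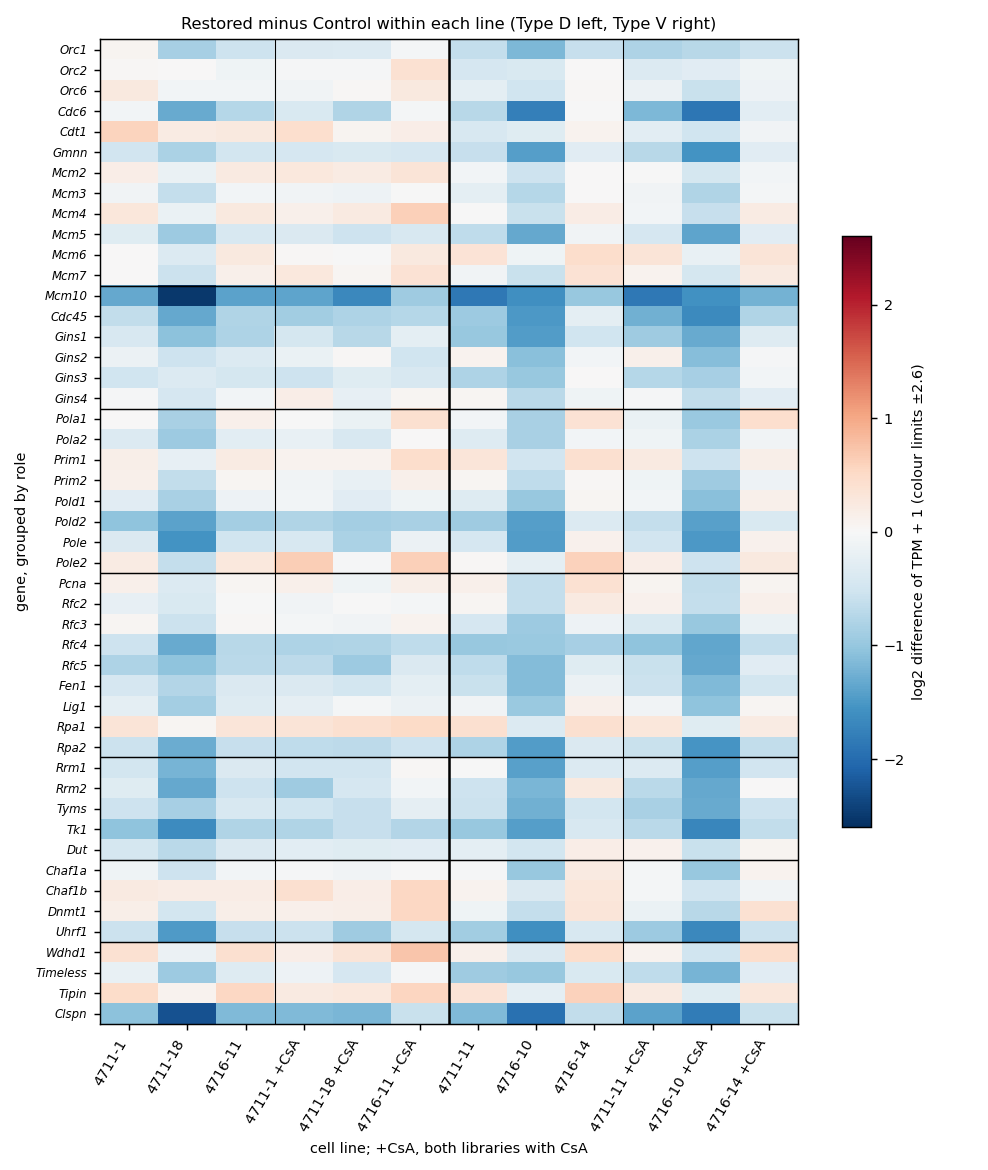
Difference of log2(TPM + 1) between Restored and Control libraries of each line (columns, Type D left, Type V right, without and with CsA) for the 48 genes (rows, grouped by role), in colour with limits of ±2.6. The columns of 4711-18 and 4716-10 are the darkest blue, with 43 and 48 of 48 genes lower, and 4716-14 is mixed, with 22 lower.

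CsA alone had small differences in 1 direction. Restored + CsA against Control + CsA is a comparison of its own, with neither group shared with that of Restored against Control. CsA alone is set against the same Control libraries as restoration, so their values are only given side by side. Without a block, limma called 0 of the 48 genes with CsA alone in either type, and 0% of all tested genes. At an unadjusted p under 0.05 the numbers were 1 (Gins1 in Type D, -0.44) and 0. Over all 14104 tested genes they were 114 and 54. The median was -0.17 in both types, against -0.03 and -0.01 over all tested genes, and 46 and 47 of 48 changes were negative. In all 3 lines 33 and 37 genes were lower, where 20.4% and 21.5% of all tested genes were. For Mcm10 the change was -0.31 (95% interval -0.80 to 0.19) in Type D and -0.36 (-0.86 to 0.13) in Type V. This fit does not pair the libraries of a line, so its error includes the spread between lines. The lack of calls therefore does not show that CsA alone had no effect.

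Under CsA, restoration had a median nearer 0 in Type D. The medians were -0.18 and -0.35, against 0.09 and 0.04 over all tested genes, and 32 and 44 of 48 were negative. In Type D 1 gene fell, Mcm10 (-1.33, adjusted p = 0.000939), with a background of 1.88%. In Type V 6 fell, against 1.77%, namely Mcm10 (-1.55), Clspn (-1.27), Cdc45 (-1.23), Uhrf1 (-1.07), Tk1 (-1.01) and Rfc4 (-1.01). Without 4716-10 that number was 2, Cdc45 and Mcm10, and it was 0 when only the compared groups were fitted. By adjusted p alone 4 genes were lower in Type D (background 2.91%) and 9 in Type V (3.4%). With the cell line as a block these numbers were 11 (background 14%) and 21 (16.5%), and Mcm2, Rpa1 and Chaf1b were higher in Type D and none of the 48 in Type V (27.2% and 20.6% of all tested genes were). Median-ratio scaling gave a median of -0.31 in Type D. All 3 lines were lower in 26 genes of Type D (background 22.6%) and 29 of Type V (24.6%), and all 3 higher in 10 (38.6%) and 0 (30.2%). The restored group lay wholly below in 14 genes of each type (10.9% and 8.58%) and wholly above in 6 (21%) and 0 (10.9%). By role the medians in Type D were 0.07 for origin licensing, -0.45 for helicase activation and -0.45 for dNTP supply, and in Type V -0.29, -0.70 and -0.77.

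Among restored cells, CsA had a median near 0 in Type D and a negative one in Type V, and the difference between types was not tested. In Restored + CsA against Restored, limma without a block called none of the 48 genes in either type (0.0142% and 0% of all tested genes). At an unadjusted p under 0.05 there were 0 and 2, Cdc45 (-0.51) and Tyms (-0.40) in Type V. The median was 0.01 in Type D, with 22 of 48 negative, 2 lower and 11 higher in all 3 lines (18.6% and 20% of all tested genes). In Type V it was -0.20, with 48 of 48 negative, 40 lower in all 3 lines (20.5%) and none higher (12.7%). Over all tested genes the medians were 0.004 and -0.02. Within Type D the lines did not share a direction. With CsA 33 of 48 genes were lower in 4711-1 (44.3% of all tested genes) and 6 in 4711-18 (49%). Tk1 in 4711-18 was at 78.5 TPM without and 126 TPM with CsA. The interaction of CsA with restoration was called for 0 of the 48 genes in either type (0% of all tested genes in both), by limma without a block. It had 0 at an unadjusted p under 0.05, where 56 and 23 of the 14104 tested genes did. Like the comparison of restored cells, this fit leaves the lines unpaired, so effects within lines could be missed. The median of the interaction was 0.19 in Type D, with 46 of 48 positive, and -0.05 in Type V, with 35 of 48 negative. Over all tested genes it was 0.03 and -0.01.

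Before restoration no replication gene was called between the 2 types. Of Type D Control against Type V Control, limma called 0 of 48 genes (8.83% of all tested genes). At an unadjusted p under 0.05 there were 3, where 3850 of the 14104 tested genes passed. The median of Type D minus Type V was -0.16, against -0.12 over all genes. The clamp loader subunit Rfc3 was lowest relative to its error, at 83.6, 122 and 89.3 TPM in Type D and 153, 172 and 191 TPM in Type V. The groups did not overlap, and the difference of -0.82 (SE 0.22, adjusted p = 0.0186) passed the adjusted p but not the fold, where 13.1% of all tested genes passed it. Rrm2 had the largest difference, 1.17 (SE 0.54, adjusted p = 0.168), with 4711-1 at 746 TPM, and its groups overlapped. Between Restored groups limma called 0 (9.44%), with a median of -0.10. At an unadjusted p under 0.05 there were 3, against 4120 of the 14104 tested genes. Without 4716-10 limma called 2, Gins2 and Pole, both lower in Type D.

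The response to restoration was not shown to differ between types for any of the 48 genes in the fit without a block. limma called 0 differences without CsA (0.0284% of all tested genes) and 0 with CsA (0.0142%). At an unadjusted p under 0.05 there were 1 (Cdt1, 0.57) and 3 (Cdt1, 0.52, Mcm2, 0.46, and Chaf1b, 0.58). Of the 14104 tested genes 540 and 430 had such a p. The 95% intervals of the difference in this fit were wide for the genes that fell. They were -0.97 to 0.43 for Mcm10, -1.32 to 0.82 for Clspn, -0.78 to 0.37 for Tk1 and -1.06 to 0.64 for Pold2. Differences of that size remain within the error of this fit, which leaves the lines unpaired and so includes the spread between lines. In the blocked fit 1 difference passed the adjusted p without CsA (Cdt1, background 5.57%) and 1 with CsA (Chaf1b, 5%).

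Levels before restoration spread widely over the 48 genes. On the TPM scale, which allows for transcript length, the median over the 6 Control libraries ran from 508 TPM for Pcna, 301 for Rrm2, 291 for Mcm7 and 272 for Mcm3 down to 23.5 for Cdc6, 17.8 for Orc1 and 16.5 for the GINS subunit Gins3. Genes of 1 complex did not sit together, since Gins4 was at 157 TPM and Gins3 at 16.5, and the primase and polymerase alpha genes were at 123 (Prim1), 98.7 (Pola2), 65.7 (Prim2) and 54.9 (Pola1). The ranges of neighbours in this order mostly overlapped over the 6 libraries, for example Mcm2 at 249 to 324 TPM and Rrm1 at 215 to 327 TPM. The sum of all 48 was 5901 to 6451 TPM in Type D Control and 4246 to 5864 TPM in Type D Restored, and 6075 to 7133 TPM and 4024 to 6342 TPM in Type V.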

How the data were processed

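RNA from 24 libraries (6 SCLC lines under 4 conditions at 72 h) was sequenced from stranded mRNA libraries, and TPM values per gene are what the authors deposited. The methods name more than 1 aligner (HISAT2 in the submitters' processing notes) and genome build, and which of them made this table is not given in the sources used here. TPM keeps no depth, so no counting error could be set. The symbols and gene lists were chosen with earlier results of these data known. Values were fitted as log2(TPM + 1), for the 14104 of 25239 genes with at least 1 TPM in at least 3 libraries, with limma 3.58.1 in R 4.3.3 (8 group means, moderated by eBayes with a trend), and p-values were adjusted by Benjamini-Hochberg over all tested genes in each of 14 comparisons. A gene was called at an adjusted p under 0.05 and a log2 change of at least 1. Fold changes on this scale understate the change of low genes. Same-line libraries come from 1 cell line by their labels, and their deviations from group means correlated at 0.599 to 0.929 (36 pairs), so the cell line block is a paired fit. Replicate numbers follow accession order. Genes were named from a set part of the list and as the largest and smallest change of each role, and the rest (such as Gins1, Rpa2, Tipin and Tk2) after their values were seen. The settings varied were the pseudocount (0.1), the filter (none, or at least 5 TPM), quantile and median-ratio scaling, the compared groups alone, the cell line block, and each line left out.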

Additional observations from a re-analysis of the deposited data

Results flagged for a closer look

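Of the 48 genes, only Cdt1 differed between types in its response to restoration in the fit with the cell line block (adjusted p alone). The 48 thus passed less often than all tested genes, and Cdt1 is named because it passed. The Type D response minus the Type V response was 0.57 (SE 0.157, adjusted p = 0.0459 by limma, where 5.57% of all tested genes passed). The log2 differences of the lines were 0.59, 0.22 and 0.26 in Type D and -0.42, -0.32 and 0.09 in Type V. Without the block the difference had the same size and did not pass (adjusted p = 1).

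Chaf1b, the histone chaperone gene of chromatin assembly, was alone among the 48 genes in differing between types in its response under CsA. It passed only in the blocked fit, by adjusted p alone. Here too the 48 passed less often than all tested genes, and Chaf1b is named because it passed. The difference was 0.58 (SE 0.157, adjusted p = 0.044 by limma, where 5% of all tested genes passed), and without the block its adjusted p was 1. Chaf1b under CsA was at 89.1, 98.7 and 78.7 TPM and, restored, at 119.8, 111 and 114 TPM in Type D, and at 113, 99.1 and 104 TPM and, restored, 109.9, 69.9 and 97.4 TPM in Type V.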

How the results depend on the processing

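The cell line block (replicate block) left the number called at 4, 2 and 1 in the first 3 restoration comparisons and raised it from 6 to 7 under CsA in Type V, where it added Cdc6. By adjusted p alone the number of genes was 11 on restoration in Type D, 9 in Type V, 4 under CsA in Type D and 1 between Control groups. Quantile normalization gave 4 in Type V, and fitting only the compared groups gave 1 in Type V and 0 under CsA in Type V. Median-ratio scaling moved the median under CsA in Type D to -0.31. Leaving out 1 line at a time gave 1 to 4 called in Type D (1 without 4711-18, 2 without 4716-11), 1 to 6 in Type V, 1 to 1 under CsA in Type D, 2 to 7 under CsA in Type V and 0 to 2 between Restored groups. The medians then ran from -0.46 to -0.25, -0.56 to -0.15, -0.20 to -0.09 and -0.57 to -0.17 in the 4 restoration comparisons, and the cause was not tested. Signs turned under median-ratio scaling for Mcm2 (-0.0171), Prim1 (-0.0514) and Orc6 (-0.0608) in Type D and Chaf1b (-0.0234) in Type V, and under quantile normalization for Orc6 (-0.00788) in Type D and Pcna (0.00636) and Chaf1b (-0.0141) in Type V. With 1 line left out, the range crossed 0 for 11 of 48 genes in Type D and 14 of 48 in Type V, and the lowest and highest values in Type D were -0.162 and 0.159 for Dnmt1, -0.057 and 0.0202 for Orc2, -0.204 and 0.245 for Pole2, -0.154 and 0.0911 for Pcna and -0.0337 and 0.183 for Prim1, and in Type V -0.364 and 0.107 for Dnmt1, -0.242 and 0.264 for Pcna, -0.104 and 0.322 for Pole2, -0.0932 and 0.372 for Prim1 and -0.12 and 0.298 for Wdhd1. Ranges farther from 0 on the lower side also crossed it in Type V, -0.534 to 0.0193 for Lig1, -0.583 to 0.0126 for Gins2 and -0.508 to 0.104 for Chaf1a. Mcm10 kept its call on restoration in both types under every alternative run. With 3 lines a group and no depth in TPM, small changes of low genes such as Gins3 and Orc1 could not be resolved.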
